A study of Mus musculus with 6 samples.

Results

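The genes described here are 38 genes of glycolysis and glycogen metabolism, taken by symbol out of 55536 gene identifiers in the RNA-seq data. They cover glucose transporters, the enzymes from hexokinase to lactate dehydrogenase, the monocarboxylate transporters, the pyruvate dehydrogenase kinases, and the enzymes that build and break down glycogen. Of the 38 genes, 7 are isoforms enriched in muscle (Slc2a4, Pfkm, Pgam2, Eno3, Pygm, Phka1 and Phkg1) and 9 are counterparts of the same steps that other tissues use (Slc2a1, Slc2a3, Pfkl, Pfkp, Pgam1, Eno1, Eno2, Pygb and Pygl).

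The study asked what the loss of HIRA, a histone chaperone, does to gene expression in satellite cells, the stem cells of skeletal muscle. RNA was sequenced from 3 control and 3 cKO samples. Control mice were Pax7CreErt2;Hira fl/+ and cKO mice were Pax7CreErt2;Hira fl/fl, so the controls also carried the Cre driver and 1 floxed allele; the sample labels call the controls WT, on a C57BL/6J background. The adult mice, 8 to 12 weeks old, had received a tamoxifen diet for 2 weeks. Tamoxifen activates CreErt2, which is made in cells that express Pax7, and the floxed gene is deleted in that lineage. Muscle was injured with BaCl2, and cells that were CD34+ and ITGA7+ but CD45-, TER119- and SCA1- were sorted 5 days post-injury, a gate that leaves out leukocytes and red blood cells. The sorted cells of both groups were then cultured for 48 h in high-serum medium with basic FGF. The replicates were independent RNA samples, and separate mice are not stated, so p-values measure the spread between these samples, which may be technical.

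Glycolysis splits glucose into pyruvate in a preparatory phase, which spends ATP, and a payoff phase, which yields ATP and NADH. Lactate dehydrogenase and the monocarboxylate transporters dispose of pyruvate as lactate, whereas the pyruvate dehydrogenase kinases restrain its oxidation by pyruvate dehydrogenase in mitochondria. As myoblasts differentiate, skeletal muscle cells switch on dedicated isoforms of several of these enzymes, and they store glucose as glycogen.

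Depth ranged from 47944477 to 63323577 counted reads in a sample, and 22404 genes were tested. Hira itself was lower in cKO. It had 6.69, 5.54 and 5.61 CPM (read counts relative to library size, which was scaled by the TMM method) in control. In cKO it had 3.34, 4.88 and 4.86 CPM (log2 fold change -0.43, edgeR adjusted p = 0.0237). Without control replicate 1 the adjusted p of Hira was 0.104. By RT-qPCR, another measure than counts over the whole gene, the paper reports a much larger drop of Hira in cKO satellite cells. It also reports that HIRA protein could not be detected in them. Transcripts of differentiating muscle were abundant in both groups. The 15 markers of this state summed to 39358 to 40723 CPM in control and to 31511 to 34421 CPM in cKO, with none at 0. Of these 15 markers 9 fell in cKO and 0 rose in edgeR (1 higher at an unadjusted p under 0.05, 0 higher with DESeq2). Of all genes tested, 6.46% fell and 9.38% rose by the same test. The median log2 fold change of the 15 markers was -0.17. Myog, an early factor of differentiation, fell by 0.20 on the log2 scale, whereas Acta1, skeletal muscle actin, had a log2 fold change of -0.07 that did not pass. Markers of satellite cells and myoblasts summed to 5101 to 5210 CPM in control and to 4466 to 4845 CPM in cKO. Of these 10 markers 7 fell and 0 rose in edgeR (1 higher at an unadjusted p under 0.05, 0 higher with DESeq2). Their estimates went both ways, with 3 above 0 and a largest log2 fold change of 0.89. The 10 proliferation markers summed to 1156 to 1180 CPM in control and to 998 to 1102 CPM in cKO, with 3 lower in edgeR. In bulk RNA, fewer cells of a type and less RNA per cell cannot be told apart.

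Promoters were examined for 3 short motifs in the RefSeq windows of 300 bases (250 before to 50 after each annotated start, assembly GRCm38.p6), which matched 36 of the 38 genes in 50 windows; Slc2a3 and Slc2a4 were not matched. The letters ACGTG, the core of the element bound by hypoxia-inducible factors, were present on either strand in 46% of the windows of these genes and in 19.6% of all 32851 windows. CAGCTG, an E-box bound by myogenic factors, was present in 20% of their windows against 16.3% of all. A motif like that of MEF2 factors (CTA and TAG separated by any 4 bases) was present in 4% against 3.69%. The promoters of Slc16a3 (chr11:120948817-120949116, plus strand), Pgk1 (chrX:106186850-106187149, plus strand), Ppp1r3c (chr19:36736555-36736854, minus strand) and Phka1 (chrX:102644197-102644496, minus strand) are shown as examples of genes that fell in cKO and hold at least 2 motif matches in their window; Slc16a1 and 1 window of Pfkm also do and are not shown. That of Pgam2 (chr11:5803747-5804046, minus strand) is shown as a muscle isoform with an E-box. Capitals mark the motifs, with CACGT being ACGTG on the opposite strand.
Slc16a3: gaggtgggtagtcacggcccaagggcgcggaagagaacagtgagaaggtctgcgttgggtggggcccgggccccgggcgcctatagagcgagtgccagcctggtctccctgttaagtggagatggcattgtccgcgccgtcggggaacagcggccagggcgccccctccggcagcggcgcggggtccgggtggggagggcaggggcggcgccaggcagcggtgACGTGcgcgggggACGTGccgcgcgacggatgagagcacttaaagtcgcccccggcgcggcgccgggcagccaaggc
Pgk1: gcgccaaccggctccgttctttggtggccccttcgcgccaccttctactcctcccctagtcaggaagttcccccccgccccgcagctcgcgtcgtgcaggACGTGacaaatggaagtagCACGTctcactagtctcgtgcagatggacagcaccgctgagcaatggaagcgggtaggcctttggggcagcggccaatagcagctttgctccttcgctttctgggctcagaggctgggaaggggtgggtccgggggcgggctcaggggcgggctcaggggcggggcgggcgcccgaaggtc
Ppp1r3c: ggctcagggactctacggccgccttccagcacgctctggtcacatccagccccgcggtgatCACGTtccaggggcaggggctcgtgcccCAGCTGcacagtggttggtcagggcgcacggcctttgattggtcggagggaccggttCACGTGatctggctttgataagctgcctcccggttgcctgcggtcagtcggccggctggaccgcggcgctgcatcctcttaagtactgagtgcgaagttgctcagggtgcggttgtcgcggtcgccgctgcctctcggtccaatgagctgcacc
Phka1: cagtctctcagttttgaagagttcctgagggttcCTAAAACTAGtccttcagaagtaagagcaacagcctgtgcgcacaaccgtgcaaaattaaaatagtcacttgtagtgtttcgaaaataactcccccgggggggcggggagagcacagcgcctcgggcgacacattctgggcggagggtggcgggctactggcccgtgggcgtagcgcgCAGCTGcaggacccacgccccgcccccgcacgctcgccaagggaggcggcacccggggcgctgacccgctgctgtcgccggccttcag
Pgam2: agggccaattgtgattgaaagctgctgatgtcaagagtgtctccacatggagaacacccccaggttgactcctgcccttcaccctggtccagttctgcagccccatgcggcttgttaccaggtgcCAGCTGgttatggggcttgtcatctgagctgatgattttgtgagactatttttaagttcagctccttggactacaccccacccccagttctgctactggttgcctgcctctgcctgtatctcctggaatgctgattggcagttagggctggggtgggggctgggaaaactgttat
Slc16a3 and Pgk1 each hold ACGTG at 2 places, and Ppp1r3c holds it at 2 places beside an E-box; 1 of these is CACGTG, which holds it on both strands. Phka1 holds an E-box and the MEF2-like motif. ACGTG was in the promoters of 5 of the 8 genes that fell in cKO and of 14 of the 27 matched genes that did not pass the test. Counted per gene, at least 1 window held it for 55.6% of the 36 matched genes and for 21.8% of all genes. Windows of the same gene can overlap. A match is a description of these letters and not of a bound site.

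In the comparison of cKO with control, 10 of the 38 genes passed. By edgeR's quasi-likelihood test, with p adjusted over all genes tested and a threshold of 0.05, 8 of the 38 genes fell in cKO and 2 rose. Over all genes, 6.46% fell and 9.38% rose. The genes that fell were Pfkm, Pgk1, Slc16a1, Slc16a3, Pdk1, Pdk4, Phka1 and Ppp1r3c, and those that rose were Slc2a3 and Pygl. With CPM scaled by total counts alone, Pgk1 no longer passed and Hk2 rose; over all genes that scaling gave 2462 higher and 1057 lower calls, against 2101 and 1448. The median log2 fold change of the 38 genes was -0.07, compared with -0.0011 over all genes, and 25 estimates were below 0. In 13 genes all cKO samples lay under all control samples, which held for 15% of all genes, and in 5 genes all lay above, which held for 16.8%. The 28 genes that did not pass had log2 fold changes between -0.12 and 0.09, and the 95% interval lay within 0.3 of 0 for 26 of them.

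**Figure D1:**
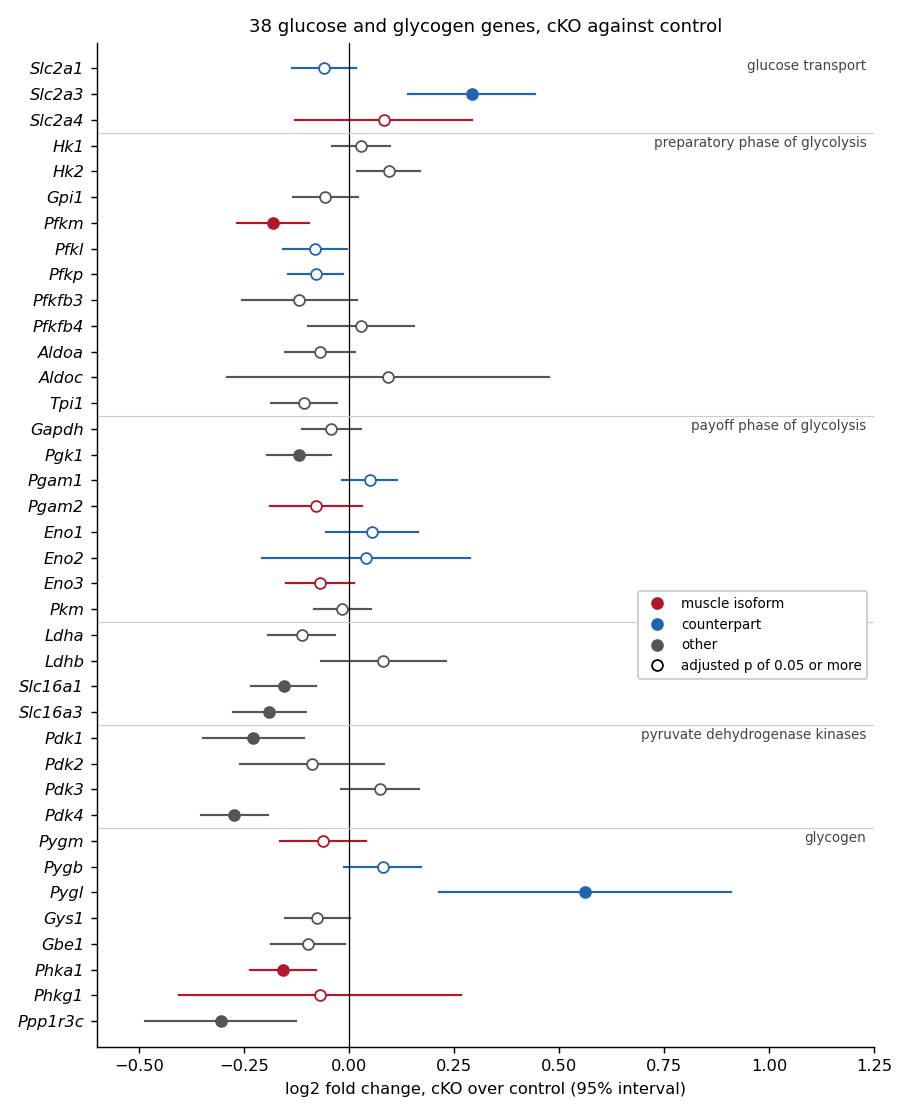
Log2 fold change of cKO over control for each of the 38 genes (x axis) with its 95% interval (line), grouped by role; filled points passed the test, and colour gives the isoform class. The 8 filled points left of 0 lie between -0.30 and -0.12, and the 2 filled points right of 0 belong to Slc2a3 and Pygl.

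Levels were compared between genes per kilobase of exonic length. In control, by the counts on the genes themselves, Pkm, the pyruvate kinase of most tissues, had the highest level of the 38 genes, at 488 CPM per kb, followed by Eno3 at 424, Aldoa at 410, Ldha at 327 and Pgam2 at 192 CPM per kb. This order depends on reads shared with pseudogenes, described further on: with the pseudogene counts added, Pkm would be at 703 CPM per kb, followed by Gapdh at 662, Aldoa at 494, Eno3 at 424, Ldha at 388 and Pgk1 at 331 CPM per kb. Of the exonic bases of Pkm, 15.3% overlap Gm49759 on the same strand, so that part of its counts is uncertain. Per kilobase, by the counts on the genes themselves, muscle isoforms exceeded their counterparts at most steps. Enolase was mostly Eno3 on this scale, with 83.0 CPM per kb for Eno1 and 0.711 for the neuronal Eno2. Exonic length was 1739 bases for Eno3 and 5379 for Eno1, so this lead rests in part on length. In CPM, Eno3 averaged 738 and Eno1 446 in control. With the counts of its pseudogenes added, Eno1 was at 934 CPM, above Eno3, and at 174 CPM per kb, below Eno3. Pfkm led phosphofructokinase per kilobase, at 37.1 CPM per kb, with 13.5 for Pfkl and 8.68 for Pfkp, the liver and platelet isoforms. This lead rests largely on exonic length, which was 3340 bases for Pfkm, 6675 for Pfkl and 13401 for Pfkp. Their mean levels in control were 124, 90.0 and 116 CPM. Among glycogen phosphorylases, Pygm had 28.8 CPM per kb, Pygb, the brain isoform, 5.92 and Pygl, the liver isoform, 0.158. Glucose transport differed, with 17.6 CPM per kb for Slc2a1, the transporter of most tissues, and 1.77 for Slc2a4, the insulin-responsive transporter of mature muscle and fat. By the counts on the genes themselves, the 6 genes of highest level held the same ranks in cKO.

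Of the 3 glucose transporters, Slc2a3 rose and the others did not pass. Slc2a3 (ENSMUSG00000003153, chr6:122727809-122801640 on mm10, as for the genes that follow), a high-affinity transporter of neurons and leukocytes, had 5.83, 5.94 and 5.72 CPM in control and 7.61, 6.93 and 6.93 CPM in cKO. All cKO samples were above all control samples, by a mean of 22.4% (log2 fold change 0.29, standard error 0.07, edgeR adjusted p = 0.00979). Slc2a1 averaged 61.9 ± 1.17 CPM in the control samples and 59.4 ± 1.72 CPM in the cKO samples (SD, n = 3), and the groups overlapped. Slc2a4 had 7.05, 6.37 and 5.10 CPM in control and 6.83, 6.41 and 6.36 CPM in cKO, so that control replicate 3 lay below every other sample and the direction turned without it (log2 fold change 0.08, and -0.04 without control replicate 3).

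Markers of several other cell types were also higher in cKO, where 9.38% of all genes rose. All 15 macrophage markers rose, and the median of their log2 fold changes was 1.06; their summed level was 147 to 153 CPM in control and 309 to 357 CPM in cKO, and none was at 0. Among the most abundant, mean Lyz2 was 81.1 CPM in control and 184 CPM in cKO, and mean Ctss was 18.7 and 42.7 CPM. Of 9 fibroblast markers tested 7 rose, with sums of 1123 to 1200 CPM in control and 1530 to 1686.5 CPM in cKO and none at 0. Endothelial markers summed to 21.1 to 22.8 CPM in control and 31.2 to 36.1 CPM in cKO, with 5 of 10 higher and none at 0. Of the neuron and glia markers 2 of 6 tested rose, with sums of 58.9 to 61.3 CPM and 90.1 to 94.7 CPM and none at 0. The 8 neutrophil markers summed to at most 0.56 CPM in any sample, with S100a9, Elane and Ltf at 0, and none reached the level needed for the test. Red blood cell markers summed to at most 0.716 CPM, with Hbb-bs at 0, and the 1 tested did not pass. The sort, which preceded the culture, gated out CD45+ cells, the leukocytes that include macrophages. It gated out TER119+ and SCA1+ cells as well. Among the cKO samples Slc2a3 was highest in replicate 1, as was the neuron and glia sum. The macrophage, fibroblast and endothelial sums were highest in cKO replicate 2. The paper reports that satellite cells without Hira raise genes of cardiac, endothelial and other lineages. It also reports that they stain for VE-Cadherin, the product of Cdh5. Whether the markers here came from other cells or from the myogenic cells was not tested. The part of either in the higher level of Slc2a3 was not tested.

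In the preparatory phase, Pfkm fell and the other 10 genes did not pass. Pfkm (ENSMUSG00000033065, chr15:98092589-98132451) encodes the muscle subunit of phosphofructokinase, the committed step of glycolysis. Its level was 131, 122 and 120 CPM in control and 115, 105 and 109 CPM in cKO. All cKO samples were below all control samples, and the mean fell by 11.8% (log2 fold change -0.18, standard error 0.04, edgeR adjusted p = 0.0059). The call held in all 6 fits that left out a sample, with log2 fold changes of -0.22 to -0.14. Of the exonic bases of Pfkm, 10.2% overlap Gm26513 on the same strand, so that part of its counts is uncertain. Its counterparts Pfkl (90.0 ± 0.313 CPM in control, 85.2 ± 3.73 in cKO) and Pfkp (116 ± 1.71 and 110 ± 1.82) had the same log2 fold change of -0.08 (adjusted p = 0.157 and 0.102), and in neither did the groups overlap.

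Hexokinase, which traps glucose in the cell, had estimates above 0. Hk2, the isoform induced in growth and by insulin, had 70.0, 74.2 and 74.9 CPM in control and 78.6, 77.6 and 77.8 CPM in cKO. The groups did not overlap, and the log2 fold change of 0.09 did not pass (adjusted p = 0.0835). Tpi1, triosephosphate isomerase, had 449, 447 and 439 CPM in control and 436, 392 and 412 CPM in cKO, again without overlap (log2 fold change -0.11, adjusted p = 0.0603); it passed with DESeq2 and with the size factors of DESeq2 in edgeR. Aldoa, the aldolase of muscle, had 1209, 1192 and 1176 CPM in control and 1212, 1075 and 1122 CPM in cKO. Here cKO replicate 1 lay above every control sample and cKO replicates 2 and 3 lay below.

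In the payoff phase, Pgk1 was the 1 gene of 8 that passed. Phosphoglycerate kinase, its product, makes the first ATP of glycolysis. Pgk1 (ENSMUSG00000062070, chrX:106187100-106203699) had 142, 143 and 141 CPM in control and 138, 126 and 129 CPM in cKO (log2 fold change -0.12, standard error 0.04, edgeR adjusted p = 0.0352), with no overlap of the groups. This call was the least stable of the 10. It was lost without any 1 of control replicates 1, 2 and 3 or of cKO replicates 2 and 3, with adjusted p between 0.0787 and 0.128, and the adjusted p was 0.000935 without cKO replicate 1. Gapdh, often used as a reference gene, averaged 396 ± 12.7 CPM in control and 385 ± 9.78 in cKO (log2 fold change -0.04, 95% interval -0.11 to 0.03). The log2 fold change of Pkm was -0.02 (95% interval -0.08 to 0.05), which was 0.0087 when scaled by total counts alone.

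Pgam2 and Eno3, the muscle forms of phosphoglycerate mutase and enolase, did not pass, and their cKO samples were spread widely. Pgam2 had 165, 160 and 160 CPM in control and 167, 138 and 154 CPM in cKO (log2 fold change -0.08, adjusted p = 0.37). Eno3 had 752, 737 and 725 CPM in control and 747, 668 and 697 CPM in cKO (log2 fold change -0.07, adjusted p = 0.266). In both, cKO replicate 1 lay within or above the control samples and the other cKO samples lay below. The counterparts had estimates above 0: Pgam1 had 135, 139 and 138 CPM in control and 144, 141 and 140 in cKO (log2 fold change 0.05, adjusted p = 0.331). Eno1 had 440, 452 and 447 CPM in control and 516, 444 and 431 CPM in cKO, so that its estimate of 0.05 rested on cKO replicate 1, without which it was -0.03. Eno2 was near 3.35 CPM in control and 3.46 in cKO (log2 fold change 0.04, 95% interval -0.21 to 0.29), and was -0.04 without control replicate 3 and -0.065 without cKO replicate 1.

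Both monocarboxylate transporters fell. Slc16a3 (ENSMUSG00000025161, chr11:120948480-120960868) encodes the transporter that glycolytic cells use to export lactate. It had 59.0, 56.4 and 53.2 CPM in control and 50.3, 48.2 and 49.3 CPM in cKO, so that the mean fell by 12.3% (log2 fold change -0.19, standard error 0.04, edgeR adjusted p = 0.00469). Slc16a1 (ENSMUSG00000032902, chr3:104638668-104658462), which carries lactate in either direction, had 103, 104 and 106 CPM in control and 93.1, 89.4 and 98.2 CPM in cKO, and fell by 10.2% (log2 fold change -0.16, standard error 0.04, edgeR adjusted p = 0.00804). In neither gene did the groups overlap, and both calls held in all 6 fits that left out a sample. Ldha, the dehydrogenase subunit favoured in muscle and glycolytic cells, had 1098, 1086 and 1059 CPM in control and 1057, 945 and 997 CPM in cKO. Its groups did not overlap, and the adjusted p was 0.0566 (log2 fold change -0.11); it passed with DESeq2. Ldhb, the heart subunit, averaged 8.27 ± 0.167 CPM in the control samples and 8.76 ± 0.691 CPM in the cKO samples, and did not pass.

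Among the pyruvate dehydrogenase kinases, Pdk4 and Pdk1 fell. Pdk4 (ENSMUSG00000019577, chr6:5483351-5496309), which muscle induces on fasting to spare glucose, had 71.2, 66.9 and 68.2 CPM in control and 59.0, 55.4 and 56.4 CPM in cKO. It had the smallest adjusted p of the 38 genes (log2 fold change -0.27, standard error 0.04, edgeR adjusted p = 0.000114), and all 6 fits that left out a sample kept the call, with log2 fold changes of -0.30 to -0.25. Pdk1 (ENSMUSG00000006494, chr2:71873224-71903858), a target of hypoxia signalling in other cells, had 58.5, 54.4 and 58.2 CPM in control and 50.9, 43.4 and 52.0 CPM in cKO (log2 fold change -0.23, standard error 0.06, edgeR adjusted p = 0.0115). Its groups did not overlap, with cKO replicate 2 the lowest, and without control replicate 3 the adjusted p was 0.0635. Pdk3 had 22.5, 24.0 and 24.0 CPM in control and 25.1, 24.8 and 24.4 CPM in cKO (log2 fold change 0.07, adjusted p = 0.297), and the log2 fold change of Pdk2 was -0.09 (adjusted p = 0.55).

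**Figure D2:**
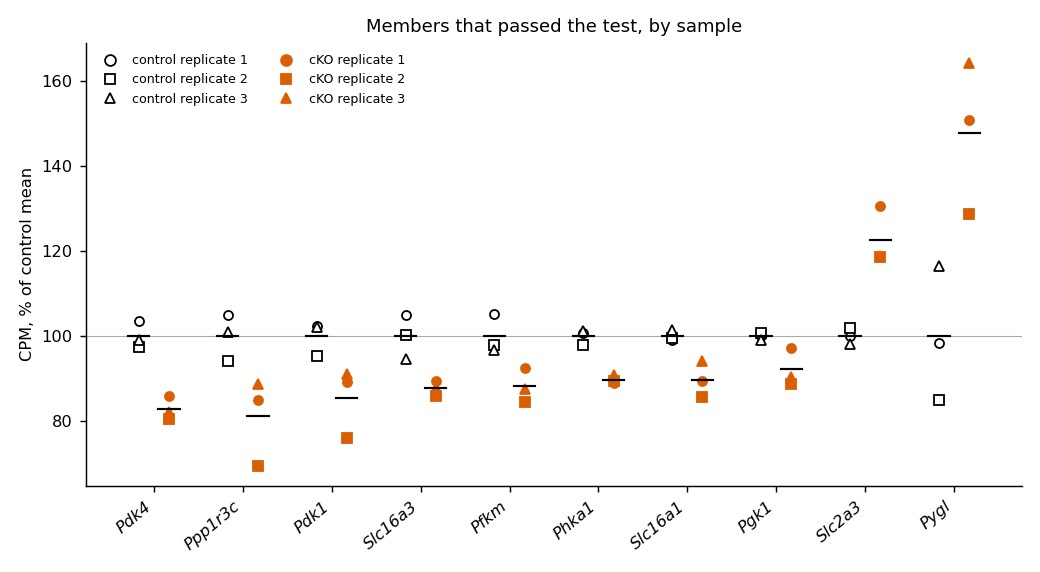
CPM of the 10 genes that passed the test in each of the 6 samples, as a percentage of the control mean (y axis); bars mark the group means and symbols the replicates. The y axis does not start at 0. In all 10 genes the cKO points do not overlap the control points; the cKO mean of Pdk4 lies 17.2% below control and that of Pygl 47.6% above, on the fitted scale.

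Among the 8 glycogen genes, Phka1 and Ppp1r3c fell and Pygl rose. Phka1 (ENSMUSG00000034055, chrX:102513975-102644246) encodes the muscle regulatory subunit of phosphorylase kinase, which switches on glycogen breakdown. It had 38.8, 37.7 and 39.0 CPM in control and 34.2, 34.4 and 35.0 CPM in cKO, with narrow spreads and no overlap (log2 fold change -0.16, standard error 0.04, edgeR adjusted p = 0.00832). Ppp1r3c (ENSMUSG00000067279, chr19:36731731-36736653), which brings protein phosphatase to glycogen and favours synthesis, had 10.3, 9.21 and 9.87 CPM in control and 8.32, 6.79 and 8.68 CPM in cKO (log2 fold change -0.30, standard error 0.08, edgeR adjusted p = 0.0216). This was the largest fall of the 38 genes, and the call was lost without control replicate 1, control replicate 3 or cKO replicate 2 (adjusted p = 0.0813, 0.0777 and 0.0782). Phkg1, the muscle catalytic subunit, was close to 1 CPM: it had 1.18, 1.31 and 1.56 CPM in control and 1.14, 1.32 and 1.39 CPM in cKO. Its log2 fold change of -0.07 had a 95% interval of -0.40 to 0.27, and it was 0.05 without control replicate 3 and 0.00099 without cKO replicate 1.

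The 3 glycogen phosphorylases release glucose units from glycogen. Pygl (ENSMUSG00000021069, chr12:70190811-70231488) had 1.07, 0.924 and 1.27 CPM in control and 1.64, 1.40 and 1.79 CPM in cKO, all cKO samples being above all control samples (log2 fold change 0.56, standard error 0.16, edgeR adjusted p = 0.0277). At these low counts the 95% interval ran from 0.21 to 0.91, and the call was lost with DESeq2 (adjusted p = 0.0917) and without control replicate 1, control replicate 2 or cKO replicate 3 (adjusted p = 0.0762, 0.133 and 0.12). Pygl is also made in leukocytes, and the summed macrophage markers were higher in cKO as well. Among the cKO samples their orders differed: the marker sum was 321, 357 and 309 CPM in replicates 1, 2 and 3, highest where Pygl was lowest and lowest where Pygl was highest. The part of these cells, which the sort gated out by CD45, was not tested. Pygm had 94.4, 92.4 and 91.3 CPM in control and 96.3, 81.5 and 88.7 CPM in cKO (log2 fold change -0.06, adjusted p = 0.454), and again cKO replicate 1 lay above every control sample. Pygb had 27.4, 28.7 and 29.3 CPM in control and 31.1, 30.2 and 29.1 CPM in cKO (log2 fold change 0.08, adjusted p = 0.249). Gys1, muscle glycogen synthase, and Gbe1, the branching enzyme, had log2 fold changes of -0.08 and -0.10 that did not pass.

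Muscle isoforms and their counterparts were then set side by side. Of the 7 muscle isoforms 2 fell (Pfkm and Phka1) and 0 rose in edgeR (0 rose at an unadjusted p under 0.05 or with DESeq2), with a median log2 fold change of -0.07 and 6 estimates below 0; over all genes 6.46% fell and 9.38% rose, with a median of -0.0011. Of the 9 counterparts 2 rose (Slc2a3 and Pygl) and 0 fell in edgeR (2 fell at an unadjusted p under 0.05 and 0 with DESeq2), with a median of 0.05. The other 22 genes had a median of -0.08, with 6 lower and 0 higher in edgeR (1 higher at an unadjusted p under 0.05 and 0 with DESeq2). The difference between the classes was not tested as such.

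The share of a family's CPM per kb held by 1 isoform does not depend on the scaling of a library, and was compared in 10 families. It does depend on the exonic length given to each isoform, so the size of a share is approximate. All cKO shares lay under all control shares in 5 families and overlapped in 5. Pfkm held 63.9%, 62.0% and 61.9% of phosphofructokinase in control and 61.6%, 60.5% and 60.8% in cKO. Eno3 held 83.5% ± 0.387 of enolase in control and 82.3% ± 0.829 in cKO (SD, n = 3), and Pygm held 82.6% ± 0.741 of glycogen phosphorylase in control and 80.9% ± 1.13 in cKO. The enolase share leaves out the reads on pseudogenes of Eno1 and on its coding copy Eno1b, described further on. The widest shift was that of Pdk4 among the pyruvate dehydrogenase kinases, which held 51.7%, 50.6% and 50.6% in control and 47.6%, 47.4% and 46.6% in cKO. Ldha held 98.4% of lactate dehydrogenase in control and 98.2% in cKO. For Pgam2 the groups overlapped, at 73.5% ± 0.65 and 71.7% ± 1.81. Overlap was also found for Slc2a4, Hk2, Aldoa and Slc16a3. The exact two-sided permutation test of 3 against 3 samples cannot go below p = 0.1, which these 5 families reached (p = 0.2 after adjustment over the 10 families), so no shift in share passed.

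**Figure D3:**
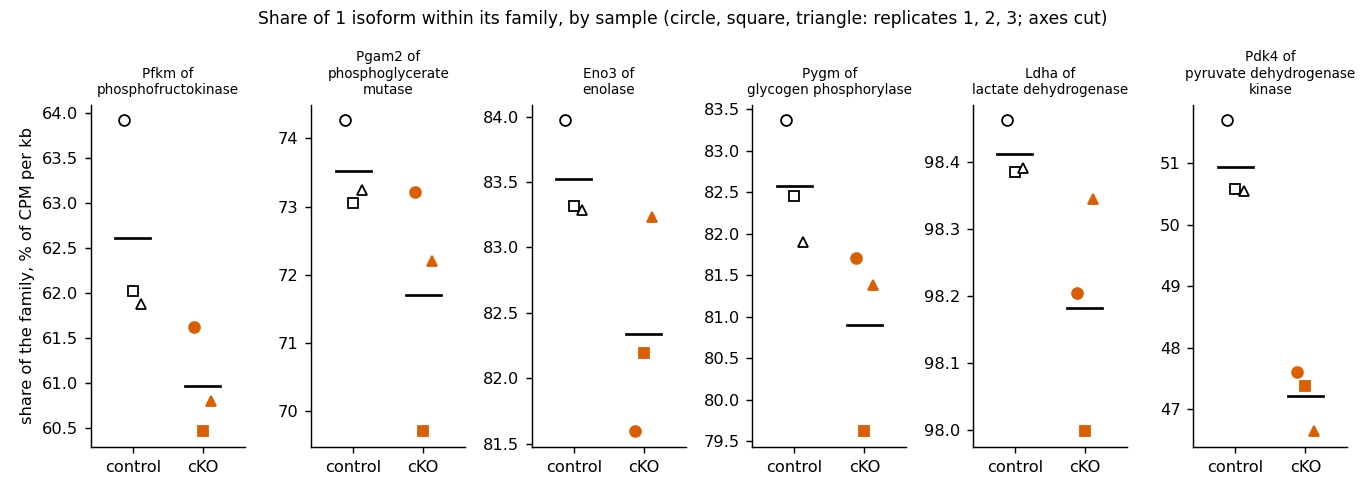
Share of 1 isoform within its gene family, in percent of the family's CPM per kb (y axes, which are cut and differ between panels), for the 6 samples; bars are group means of 3. Pdk4 shows the widest separation, 50.9% in control against 47.2% in cKO, and the Pgam2 shares of the groups overlap.

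The cKO samples themselves differed in this pathway. In Pgam2, Eno3, Pygm and Aldoa the order of the cKO samples was replicate 1 above 3 above 2, and this order was found in 18 of the 38 genes (47.4%), against 19.9% of all genes tested. It was also found in 11 of the 15 markers of differentiating muscle (73.3%), and in 2 of the 9 counterparts (22.2%). The order was chosen after the values were seen. cKO replicate 1 also had the lowest total count, the lowest Hira of the cKO samples and the lowest level of the proliferation marker Mki67, at 257 CPM against 342 and 326 CPM in the other cKO samples. The part of these differences in the order was not tested.

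Without cKO replicate 1 the comparison gave 18 lower genes of 38 and 2 higher, against 7.33% of all genes lower and 9.7% higher in that fit. All 10 calls made with every sample were kept, and 10 further genes passed: Gpi1, Pfkl, Pfkfb3, Aldoa, Tpi1, Pgam2, Eno3, Ldha, Pygm and Gys1. Among muscle isoforms 5 of 7 were then lower, with log2 fold changes of -0.15 for Pgam2 (edgeR adjusted p = 0.0136), -0.11 for Eno3 (adjusted p = 0.0126) and -0.12 for Pygm (adjusted p = 0.0254). Pfkl was then the 1 counterpart that was lower. The 8 falls called with every sample thus did not rest on this sample. Among the fits that left out a sample, the 10 further calls were made only without it. Leaving out any other sample gave 5 to 7 lower genes.

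**Figure D4:**
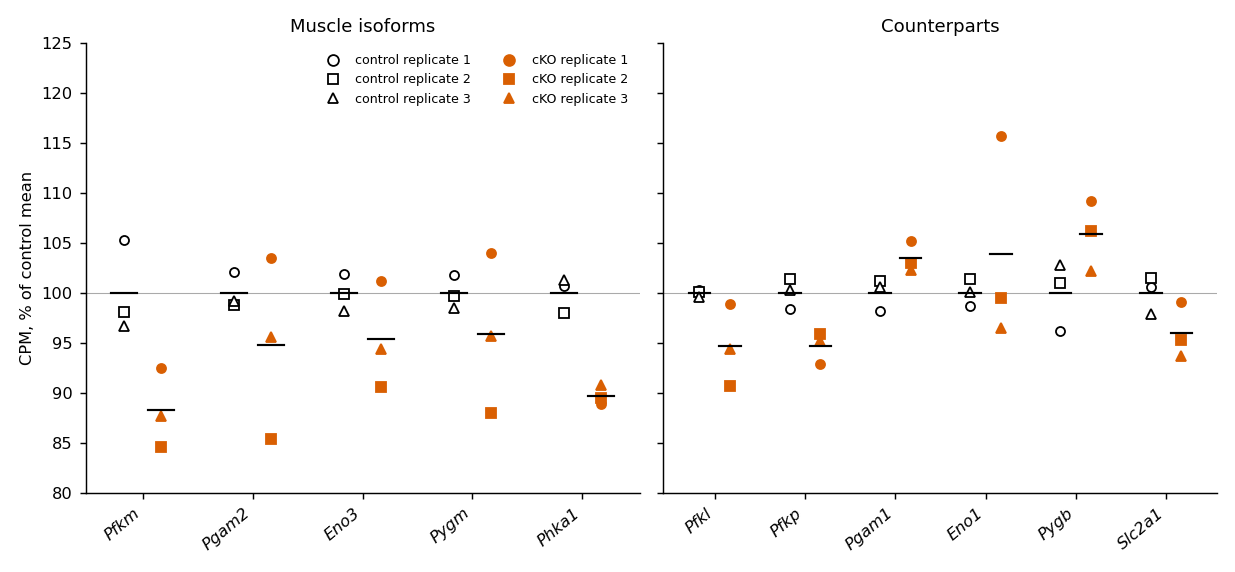
CPM of 5 muscle isoforms (left) and 6 counterparts (right) in each of the 6 samples, as a percentage of the control mean (y axis, not starting at 0); bars mark the group means. For Pgam2, Eno3 and Pygm the filled circle of cKO replicate 1 lies at or above the control samples' mean and cKO replicates 2 and 3 lie below every control sample, while Pfkm and Phka1 are below control in all 3 cKO samples.

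Several of these genes share sequence with pseudogenes, and reads that match both can be counted on either. Exact 75-base windows of their transcripts were found in pseudogenes for 11 of the 38 genes, in 137 pseudogenes, of which 114 were copies of Gapdh. None of the 7 muscle isoforms had such a copy. The pseudogenes of Gapdh held 2339 ± 18.3 CPM in control, 5.90 times the 396 CPM of the gene itself, and those of Pgk1 held 601 ± 4.79 CPM, 4.23 times the gene. Pseudogenes also held more than the gene for Eno1 (487 against 446 CPM) and Ldhb (8.54 against 8.27 CPM). Eno1b, annotated as a coding copy of Eno1, held 33718 to 39106 counts in a sample, beside 24118 to 28395 counts on Eno1. The levels of these 4 genes, and the shares of Eno1 within enolase and of Pgam1 within phosphoglycerate mutase, are uncertain for this reason, as are those of Gpi1, Pkm, Tpi1, Aldoa and Ldha to a smaller degree.

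Adding the pseudogene counts to each gene left 9 of the 10 calls in place. Pgk1 was lost (log2 fold change -0.09, edgeR adjusted p = 0.0815), while Pygl, whose 1 such pseudogene was at 0.0496 CPM in control, kept its call (adjusted p = 0.0134). The pseudogenes of Gapdh went from 2339 CPM to 2223 CPM in cKO. Of the 104 that could be tested 4 fell and 0 rose, against 6.46% and 9.38% of all genes. They share sequence with Gapdh, so they are not 104 separate readings. The log2 fold change of Gapdh with its pseudogenes was -0.07 (adjusted p = 0.116).

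**Figure D5:**
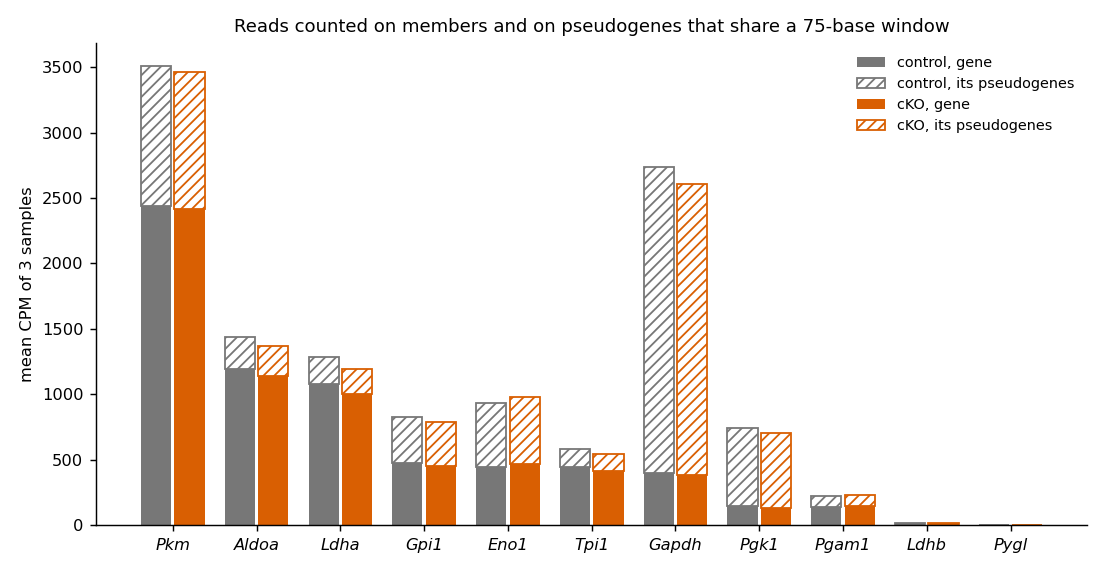
Mean CPM of 3 samples (y axis) counted on the 11 genes that share a 75-base window with pseudogenes (solid) and on those pseudogenes (hatched, stacked), in control (grey) and cKO (orange). For Gapdh and Pgk1 most of the bar is hatched: 2339 of 2736 and 601 of 743 CPM in control.

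Other genes of glucose metabolism were read from the same fit, in which 9.38% of all genes rose and 6.46% fell. Of 25 other genes of glycolysis and sugar transport 18 could be tested, of which 3 rose and 0 fell in edgeR (1 fell at an unadjusted p under 0.05 and 0 with DESeq2). Hk3, the hexokinase of leukocytes, had 1.50, 1.53 and 1.38 CPM in control and 2.49, 3.46 and 2.45 CPM in cKO (log2 fold change 0.94, standard error 0.15), alongside the macrophage markers. Adpgk, an ADP-dependent glucokinase, rose by 0.17 on the log2 scale, and Slc2a10, a further sugar transporter, by 0.49.

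Of 20 other glycogen genes tested 4 fell and 1 rose, against 6.46% and 9.38% of all genes, and 15 did not pass; 12 estimates were below 0 and 8 above. Among those that fell, Gsk3b, a kinase that restrains glycogen synthase, had a log2 fold change of -0.16, Phka2, the liver form of the subunit that Phka1 encodes, -0.15, and Stbd1, a glycogen-binding protein, -0.11. Pgm2, a phosphoglucomutase, had a log2 fold change of 0.14, and its call was lost with DESeq2, with the replicate number as a block and in 5 of the 6 fits that left out a sample. The number that fell ranged from 2 to 8 when a sample was left out, with 8 without cKO replicate 1 and 2 without control replicate 1 or control replicate 3.

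In the pentose phosphate pathway, which branches from glycolysis and makes NADPH and ribose, 2 of 8 genes rose and 0 fell in edgeR (0 fell at an unadjusted p under 0.05 or with DESeq2), against 9.38% and 6.46% of all genes. Tkt, transketolase, had 46.9, 46.0 and 45.4 CPM in control and 68.8, 71.5 and 69.4 CPM in cKO, with every sample above control (log2 fold change 0.60, standard error 0.03). H6pd, the glucose dehydrogenase of the endoplasmic reticulum, rose by 0.13 on the log2 scale, and this list had 1 call without control replicate 2 or without control replicate 3. Among the pyruvate carrier and pyruvate dehydrogenase genes 1 of 10 fell (6.46% of all genes), Pdpr, a regulator of the phosphatase that activates the complex, with a log2 fold change of -0.16; it did not pass without control replicate 3. None of the 4 gluconeogenesis genes that could be tested passed in edgeR (2 lower at an unadjusted p under 0.05, 0 with DESeq2).

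Regulators of glucose metabolism and genes of the hypoxia response went both ways, with 6 of 27 higher and 5 lower, against 9.38% and 6.46% of all genes. Txnip, which restrains glucose uptake, rose by 0.46 on the log2 scale, Myc by 0.26, P4ha2, a collagen hydroxylase, by 0.25 and Egln3, a prolyl hydroxylase of the hypoxia pathway, by 0.23. Prkaa2, the AMP-activated kinase subunit enriched in muscle, had a log2 fold change of -0.39. Without control replicate 1 the number that fell was 3.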

How the data were processed

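The authors aligned single-end reads of 75 bp from rRNA-depleted RNA (TruSeq Stranded libraries) to mm10 with Bowtie2 2.3.4.2, an aligner that does not split reads at exon junctions; the deposited raw counts were made with featureCounts 1.6.3. Strand setting and treatment of reads that match several genes are not given in the sources used here. Between 12.0% and 12.3% of each sample's counts fell on pseudogenes. The tables of normalized values and of the authors' DESeq2 comparison were not used.

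All 55536 identifiers were found in GENCODE M21. Genes were filtered with filterByExpr, scaled by TMM and tested with edgeR 4.0.16 (quasi-likelihood, genotype as the only term, R 4.3.3), with Benjamini-Hochberg adjustment over 22404 genes; the biological coefficient of variation was 3.92%. The fit was tested on simulated data. Replicates of a group differed by more than counting error. Exonic lengths are unions of annotated exons, so levels per kb are approximate where isoforms differ. Pseudogenes were matched by exact 75-base windows. Isoform shares were compared by exact permutation tests over samples in Python 3.11.15 (scipy 1.17.1).

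The 38 genes, the isoform classes and 6 pathway and 9 marker lists were chosen with earlier results of these data known. Genes that passed, muscle isoforms and counterparts were named by rule; other members were named after their values were seen. The values of 1 gene of the glycogen list are not reported here. Alternatives were DESeq2 1.42.0, other scalings, no filter, a stricter threshold, a replicate block, adding pseudogene counts, adding coding copies as well, and leaving out each sample.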

Additional observations from a re-analysis of the deposited data

How the results depend on the processing

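The fall of Pfkm, Slc16a1, Slc16a3, Pdk4 and Phka1 and the rise of Slc2a3 were called in edgeR under every scaling, filter, pseudogene and leave-one-out alternative and with DESeq2 at an adjusted p under 0.05. When 1 sample was left out, the lower genes among the 38 numbered 5 to 18 (18 without cKO replicate 1) and the higher 1 to 2; lower muscle isoforms numbered 2 to 5, lower counterparts 0 to 1 and higher counterparts 1 to 2. Over all genes, 917 to 1673 were then lower. In the other lists, the ranges were 0 to 1 lower for glycolysis and sugar transport, 0 to 1 higher and 2 to 8 lower for glycogen, 0 to 1 lower for the pyruvate carrier and dehydrogenase, 1 to 3 higher for pentose phosphate and 3 to 6 lower for regulators. An adjusted p under 0.01 left 5 lower and 1 higher of the 38 genes, 1 higher counterpart, and 732 lower genes overall. DESeq2 gave 1 higher gene of the 38, 1 higher counterpart and 0 higher genes in the glycogen list. Log2 fold changes that took both signs when a sample was left out were those of Slc2a4 (-0.0397 to 0.183, negative without control replicate 3), Hk1 (-0.000197 to 0.0548, negative without cKO replicate 2), Aldoc (-0.017 to 0.224), Eno1 (-0.0299 to 0.102) and Eno2 (-0.065 to 0.127), all negative without cKO replicate 1 (Eno2 also without control replicate 3), Pdk2 (-0.151 to 0.00028, positive without control replicate 1) and Phkg1 (-0.154 to 0.0492, positive without control replicate 3 and cKO replicate 1). That of Pkm was 0.0087 with total counts only, and the shift in the Slc16a3 share ranged from -1.19 to 0.157 percentage points (positive without control replicate 1 and without cKO replicate 3). None of these had passed the test. The cause of these changes was not tested. Each fit that left out a sample also had fewer samples, and that part was not separated. Adding protein-coding copies of Eno1 and Gapdh to the pseudogene counts was an alternative chosen after seeing the data, and it gave the same 9 calls of the 10.

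Replicate numbers are shared by control and cKO samples in the labels. The deviations of same-numbered samples from their group means correlated at -0.0129, -0.00449 and -0.0145 across genes, so the numbers were not taken to pair the samples. With the replicate number as a block, all 8 lower and 2 higher calls were kept, the glycogen list had 0 higher genes, and no other count moved by more than 1.5 times.

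Genes near 1 CPM (Aldoc, Phkg1 and Pygl) had wide intervals at this depth, up to 0.48 from 0 among those that did not pass.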
